A study of Mus musculus with 9 samples.

Results

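The complement components and receptors described here are 8 genes of the mouse cerebral cortex: C1qa, C1qb, C1qc, C3, C4b, C3ar1, C5ar1 and Serping1. They were chosen by symbol in the deposited transcript tables, and all 8 were found among 52550 gene IDs. For each gene the TPM (a share of the library's transcripts that takes transcript length into account, scaled to a fixed total) was summed over its transcripts. Genes that reached 1 TPM in 3 or more of the 9 libraries were tested, in all 17080 genes and 7 of the 8 members. C3 did not reach that level, since it was above 1 TPM in only 2 libraries, and it is described separately.

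The mice were male C57BL/6N animals, 9 to 12 weeks old, in 3 groups of 3 libraries. In the control oligo and knockdown groups a locked nucleic acid antisense oligonucleotide was given through the lateral ventricles. It had a negative control sequence in the control oligo group (replicates 1, 2 and 3) and was directed against the enhancer RNA eRNA_06347 in the knockdown group (replicates 2, 3 and 4). Both of these groups then had MCAO, a filament occlusion of the middle cerebral artery that models ischemic stroke, for 1 h with 6 h of reperfusion, and the infarcted ipsilateral cortex was taken. Sham mice (replicates 1, 2 and 3) had a neck incision with no filament, and no oligonucleotide is described for them. The sham libraries were taken from older data of the laboratory. Surgery, oligonucleotide, data set and read length therefore cannot be told apart in any comparison with sham.

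Complement is a cascade of plasma and tissue proteins that tags surfaces for removal. C1q, built from the products of C1qa, C1qb and C1qc, recognizes a target and starts the classical pathway, which cleaves C4 and then C3. Small fragments released from C3 and C5 act on the receptors encoded by C3ar1 and C5ar1, and Serping1 encodes the C1 inhibitor, which blocks the first proteases. In the brain C1q is made mainly by microglia, and C3 and C4 are known products of reactive astrocytes and of immune cells.

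All 8 genes lie on the minus strand of GRCm38. The C1q genes are neighbours on chromosome 4, with C1qb at chr4:136880129-136886187, C1qc at chr4:136889804-136893065 and C1qa at chr4:136895917-136898803. C3 (chr17:57203970-57228136) and C4b (chr17:34728380-34743882) are both on chromosome 17. C3ar1 lies at chr6:122847138-122856161, C5ar1 at chr7:16246743-16259540 and Serping1 at chr2:84765387-84775444. Values were summed over whole genes, from exons of the deposited annotation.

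RefSeq promoter sequences (build GRCm38.p6) matched 5 of the 8 members: C1qb, C1qc, C3, C3ar1 and C5ar1. The 250 bases before the RefSeq start are shown for a C1q chain, for C3 and for the C3a receptor, because these genes stood high together in the same library below. Each is written 5′ to 3′ along the gene, and capitals mark the matches to the motifs named afterwards. The C1qb window is chr4:136886201-136886450, the C3 window chr17:57228137-57228386 and the C3ar1 window chr6:122856158-122856407.
C1qb: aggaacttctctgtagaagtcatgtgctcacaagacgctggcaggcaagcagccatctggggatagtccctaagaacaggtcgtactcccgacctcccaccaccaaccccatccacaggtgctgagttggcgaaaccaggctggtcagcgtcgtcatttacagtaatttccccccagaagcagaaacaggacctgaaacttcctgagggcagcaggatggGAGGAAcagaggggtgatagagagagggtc
C3: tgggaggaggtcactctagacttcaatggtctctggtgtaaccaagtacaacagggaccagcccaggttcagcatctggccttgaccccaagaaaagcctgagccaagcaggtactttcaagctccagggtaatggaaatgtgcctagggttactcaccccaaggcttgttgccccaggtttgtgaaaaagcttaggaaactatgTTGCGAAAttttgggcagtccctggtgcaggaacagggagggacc
C3ar1: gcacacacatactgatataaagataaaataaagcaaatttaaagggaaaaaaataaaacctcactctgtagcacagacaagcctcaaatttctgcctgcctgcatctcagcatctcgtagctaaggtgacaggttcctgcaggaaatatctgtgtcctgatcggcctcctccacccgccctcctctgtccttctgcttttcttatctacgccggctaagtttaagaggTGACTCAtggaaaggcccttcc
The motifs were searched on both strands, and they were the letters TGANTCA (AP-1), TTGCNNAA (C/EBP), TTCNNNGAA (STAT) and GAGGAA (PU.1 type). The C3ar1 window held the AP-1 letters, as TGACTCA, at -22 to -16 from the start. These letters were present in 6.75% of 32851 promoters of the same length. The C3 window held TTGCGAAA at -45 to -38, a match to letters found in 9.56% of promoters. C1qb held GAGGAA at -30 to -25 and C1qc held the same letters on the other strand at -193 to -188, a motif present in 23.3% of promoters. The C5ar1 window held none of the 4 motifs. The STAT letters, in 7.02% of all promoters, were found in none of the 5 windows.

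C4b has a near copy, C4a (chr17:34809092-34823464), and a short stretch of exon 21 of 41 is shown for both as an example of where the copies differ. The C4b stretch is chr17:34735430-34735489 and the C4a stretch chr17:34816086-34816145. Capitals mark the 13 bases of 60 that differ.
C4b: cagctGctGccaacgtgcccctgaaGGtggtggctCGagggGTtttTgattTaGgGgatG
C4a: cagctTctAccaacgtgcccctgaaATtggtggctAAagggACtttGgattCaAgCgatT
Over the full transcripts the copies were 96.1% identical. Of all 51-base windows of the C4b transcript, 34.6% were found letter for letter in C4a, against 9.1% of its 141-base windows. Read length, inferred from the coverage of transcripts with few reads, was 51 nt in sham and 141 nt in the MCAO libraries. The split between C4b and C4a is therefore uncertain, and more so in sham.

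Depth, estimated from coverage, was 29.2 to 31.2 M aligned pairs of reads in sham and 17.5 to 19.6 M in the MCAO libraries (M, mega). Small structural RNAs took 46.3 to 52.1% of the TPM in sham and 0.191 to 0.351% in the MCAO libraries, which lowers the TPM of every other gene in sham. Mitochondrially encoded genes took 0.277 to 0.577% of the TPM in sham and 22.6 to 28.9% in the MCAO libraries, and nuclear protein-coding genes took 30.6 to 34.2% and 54.7 to 63.9%. Over all genes tested the median log2 change of control oligo against sham was 0.56 in TPM. Results against sham are therefore also given after median-ratio scaling, which sets the typical gene to about no change. Knockdown replicate 4 stood apart from the other MCAO libraries: its correlation with them over the genes tested was 0.938 to 0.964, against 0.965 to 0.983 among the other 5. Each result with the knockdown group is given with and without it.

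The complement genes were higher in every control oligo MCAO library than in any sham library. All 7 members tested rose against sham, by 1.67 to 2.73 on the log2 scale of TPM + 1. The receptors C3ar1 and C5ar1 and the classical component C4b had the highest values of the 7, and C1qa and Serping1 the lowest. Of all genes tested, 52.6% rose and 12.8% fell in this comparison, and after median-ratio scaling 26.1% rose and 29.2% fell. The members' median was 2.21, and all 7 rose after scaling as well, with a median of 1.55. The control oligo libraries did not overlap sham for any of the 7 members, which held for 56.2% of all genes in the higher direction and for 30.8% after scaling.

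C1qa, the A chain of C1q, had 40.0, 43.3 and 35.5 TPM in the sham libraries and 182, 119 and 95.7 TPM in control oligo replicates 1 to 3. C1qb, the B chain, had 32.9, 42.7 and 28.7 TPM in sham and 221, 134 and 144 TPM with the control oligo. C1qc, the C chain, had 25.4, 31.9 and 24.4 TPM in sham and 137, 98.6 and 85.9 TPM with the control oligo. For each chain the lowest control oligo library lay above the highest sham library. The log2 change of C1qa was 1.67 ± 0.22 (SE, n = 3 per group; limma, adjusted p = 3.10e-04), and 1.01 after scaling (adjusted p = 0.00492). C1qb rose by 2.21 ± 0.22 (adjusted p = 7.39e-05), or 1.55 scaled. C1qc rose by 1.92 ± 0.19 (adjusted p = 8.08e-05), or 1.27 scaled. The C1q chains were the most abundant of the 8 genes in every library, per unit length.

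The chains were also compared with each other within each library. The ratio of C1qa to C1qb TPM, which no scaling of a library can alter, was 1.22, 1.01 and 1.24 in sham and 0.825, 0.893 and 0.665 with the control oligo, so the groups did not overlap. In knockdown replicates 2, 3 and 4 it was 0.786, 0.763 and 1.06. The ratio of C1qc to C1qb was 0.774, 0.749 and 0.851 in sham and 0.621, 0.737 and 0.597 with the control oligo, with the nearest libraries of the groups close together. In knockdown replicates 2, 3 and 4 it was 0.664, 0.592 and 0.772, with replicate 4 inside the sham range. Read length, as inferred from coverage, differed between sham and MCAO libraries, and its part in these ratios was not tested. An exact permutation test of 3 against 3 libraries cannot go below p = 0.10 and was not run on these ratios.

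**Figure D1:**
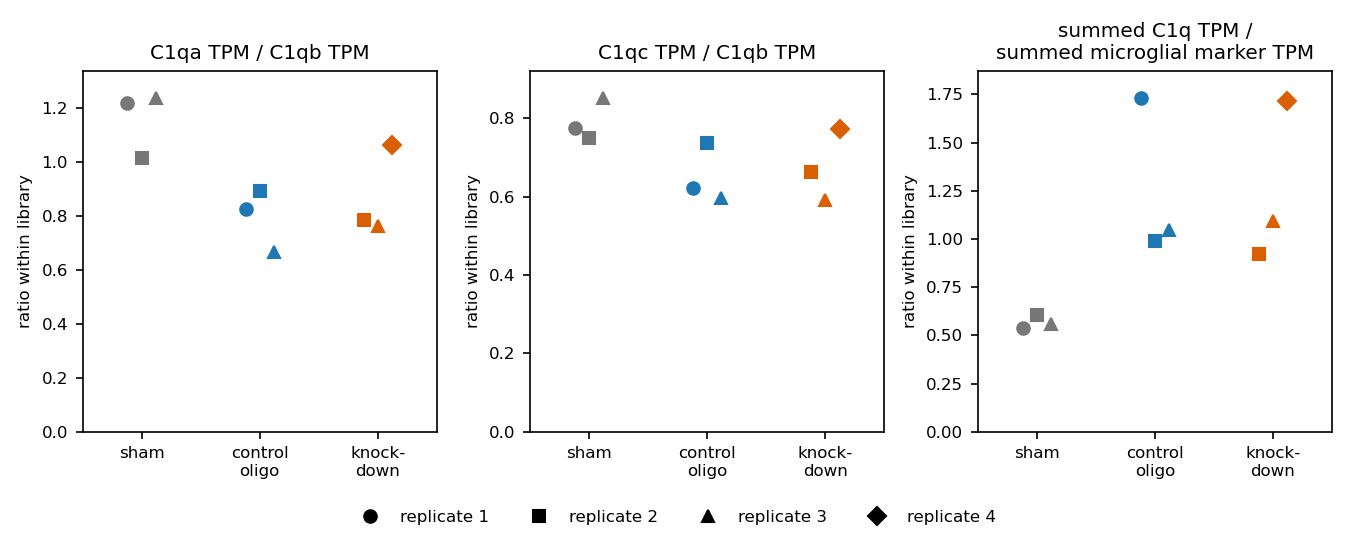
Ratios within each library (vertical axes, no unit) of C1qa to C1qb TPM, of C1qc to C1qb TPM, and of the summed C1q TPM to the summed TPM of 14 microglial markers, by group, with 1 point per library and the shape giving the replicate number. C1qa to C1qb is above 1 in the 3 sham libraries and knockdown replicate 4, and C1q to microglial markers is lowest in sham.

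C1q was also set against the microglial markers. The summed C1q TPM was 0.537, 0.606 and 0.557 of the sum over 14 microglial markers in sham, and 1.73, 0.991 and 1.05 of it with the control oligo. The marker sum itself was 183, 195 and 159 TPM in sham and 312, 355 and 311 TPM with the control oligo. Of the 14 markers, 10 rose and 1 fell in TPM, and 6 rose and 2 fell after scaling. The shares over all genes were 52.6% higher and 12.8% lower in TPM, and 26.1% and 29.2% after scaling. P2ry12, a receptor used to define resting microglia, fell by 0.65 (limma, adjusted p = 0.0234). In bulk cortex more cells of a type and more RNA per cell cannot be told apart.

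C4b, the substrate of the classical proteases, had 2.20, 2.77 and 2.35 TPM in sham and 25.6, 14.2 and 12.8 TPM with the control oligo. It rose by 2.37 ± 0.26 (SE, n = 3; limma, adjusted p = 1.12e-04), or 1.83 scaled (adjusted p = 7.96e-04). C4a, its near copy, had 0.829, 0.911 and 0.630 TPM in sham and 5.68, 6.87 and 2.26 TPM with the control oligo, and rose by 1.64 (adjusted p = 0.00194). C4a made up 27.4, 24.7 and 21.1% of the summed C4 TPM in sham and 18.2, 32.7 and 15.0% with the control oligo, so the groups overlapped in that share. The full coding transcript carried 59.3 to 90.5% of C4b TPM in sham and 77.3 to 82.0% with the control oligo.

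C3, the component on which all complement pathways converge, was close to absent in sham. Its TPM was 0.0165, 0.0133 and 0.00399 there, which rests on an estimated 2, 1 and 1 read pairs. With the control oligo it was 3.10, 0.205 and 0.504 TPM, from an estimated 144, 10 and 26 pairs. Every control oligo library was above every sham library, but replicate 1 held most of the group's C3. With no filter on low values the log2 change was 0.95 (95% interval -0.26 to 2.16; limma, adjusted p = 0.191), where 24.0% of 35100 genes rose. With 0.1 TPM added in place of 1 it was 2.92 (adjusted p = 0.0579), and without control oligo replicate 1 it was 0.41 (adjusted p = 0.0554). C3 did not pass, and no fold is given because the sham level rests on so few reads.

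C3ar1, the receptor for C3a, had 0.446, 0.759 and 0.433 TPM in sham and 18.4, 6.78 and 6.12 TPM with the control oligo. Its mean level was 19.1 times that of sham in TPM and 12.1 times after scaling, and it rose by 2.73 ± 0.36 (limma, adjusted p = 2.79e-04), or 2.38 scaled. C5ar1, the receptor for C5a, had 0.227, 0.0898 and 0.193 TPM in sham, from an estimated 5 to 13 read pairs. With the control oligo it had 8.07, 4.41 and 7.21 TPM, from 103 to 185 pairs. The mean was 38.7 times that of sham in TPM and 24.6 times after scaling, and C5ar1 rose by 2.66 ± 0.22 (adjusted p = 3.03e-05), or 2.42 scaled. Both log2 changes are smaller than the log2 of the ratio of means, since 1 TPM was added before the logarithm and the receptors are near or below 1 TPM in sham.

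Serping1, the inhibitor of C1r and C1s, had 2.73, 4.22 and 2.73 TPM in sham and 20.8, 10.5 and 11.0 TPM with the control oligo. It rose by 1.79 ± 0.28 (SE, n = 3; limma, adjusted p = 6.35e-04), or 1.24 scaled (adjusted p = 0.00765). A shorter noncoding transcript made up 32.7% of its TPM in sham replicate 2 and none in sham replicate 1. Control oligo replicate 1 held the highest value of its group for all 8 members.

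**Figure D2:**
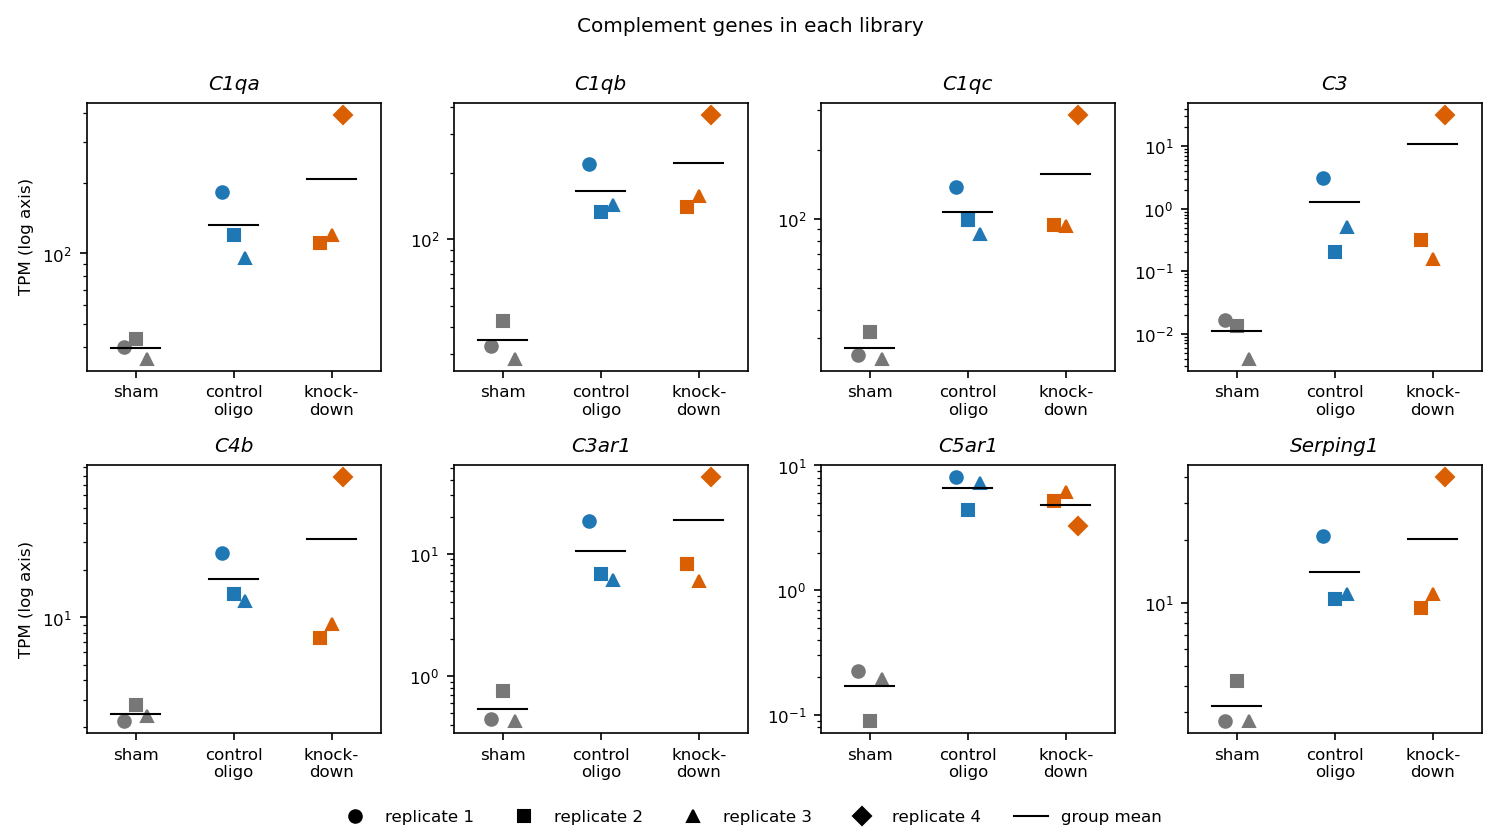
TPM of each of the 8 complement genes (vertical axis, log scale) in the 9 libraries by group, with 1 point per library, the shape giving the replicate number and the line the group mean. Every MCAO library lies above every sham library, and knockdown replicate 4 (diamond) is the highest MCAO library in 7 panels and the lowest in that of C5ar1.

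In every sham library the C1q chains were the highest of the 8 genes by TPM, followed by Serping1 and C4b, then C3ar1, C5ar1 and C3. The sham ranges of C1qa (35.5 to 43.3 TPM) and C1qb (28.7 to 42.7 TPM) overlapped, those of C1qb and C1qc (24.4 to 31.9 TPM) did so too, as did those of Serping1 (2.73 to 4.22 TPM) and C4b (2.20 to 2.77 TPM). With the control oligo the mean order was C1qb, C1qa, C1qc, C4b, Serping1, C3ar1, C5ar1 and C3. Neighbours in that order had overlapping ranges down to C5ar1, except C1qc and C4b. C3, at most 3.10 TPM, lay below the 4.41 TPM of the lowest C5ar1 library. In the knockdown group the order of the means was the same except that C3 (10.7 TPM) lay above C5ar1 (4.86 TPM), which held in replicate 4 and in neither of the others.

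Markers of cells that carry or make these proteins were measured in the same libraries. Neutrophil markers summed to 2.60 to 7.78 TPM in sham and to 338, 32.0 and 343 TPM with the control oligo (9 genes, of which 7 were tested; 7 rose, and 6 after scaling). Retnlg, Camp and Trem1 were at 0 in all sham libraries. Monocyte and macrophage markers summed to 9.20 to 16.3 TPM in sham and 17.5 to 42.4 TPM with the control oligo, and 4 of 8 tested rose, a share near that of all genes (52.6%). After scaling 1 of the 8 rose and 1 fell, beside 26.1% and 29.2% of all genes. The scaled sums overlapped, at 13.8 to 21.6 in sham and 13.7 to 36.9 with the control oligo. Reactive astrocyte markers summed to 50.7 to 63.8 TPM in sham and 931 to 1043 TPM with the control oligo, and 10 of 10 rose, also after scaling. The part of these cells in the complement values was not tested.

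The knockdown did not differ from the control oligo for any of the 7 members (limma, adjusted p = 1 for each). Over all genes 2 of 17080 passed (0.0117%) and 321 had an unadjusted p under 0.05, while 0 of the 7 members did. Estimates were 0.44 for C1qa (95% interval -0.79 to 1.66), 0.31 for C1qb (-0.63 to 1.26) and 0.36 for C1qc (-0.72 to 1.45). C3ar1 had 0.46 (-1.31 to 2.24), Serping1 0.26 (-1.08 to 1.59), C4b 0.09 (-1.94 to 2.12) and C5ar1 -0.37 (-1.08 to 0.35). The intervals span both directions and leave room for changes of more than 1 log2 unit in every member, so these 6 libraries do not show that the groups were alike.

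These estimates turned on knockdown replicate 4. C1qa had 111 and 120 TPM in knockdown replicates 2 and 3, inside the control oligo range, and 391 TPM in replicate 4. C1qb had 141, 158 and 368 TPM in the same order, and C1qc 93.4, 93.3 and 284 TPM. Replicate 4 held 2.31 to 3.11 times the mean of the other 5 MCAO libraries for these chains. C4b had 7.40 and 9.14 TPM in replicates 2 and 3, below all control oligo libraries, and 78.2 TPM in replicate 4, or 5.66 times the mean of the other 5. A retained-intron transcript made up 26.4% of C4b TPM in replicate 4, against 9.86 to 16.2% in the control oligo libraries and 7.48 to 40.8% in sham.

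C3 had 0.313 and 0.156 TPM in knockdown replicates 2 and 3 and 31.7 TPM in replicate 4, from an estimated 14, 8 and 1394 read pairs. Replicate 4 was 37.0 times the mean of the other 5, the largest such ratio among the 8 members. With no filter the log2 difference of C3 from the control oligo was 0.91 (95% interval -3.11 to 4.93), and 0.0199% of genes passed. C3ar1 had 8.27, 6.03 and 42.1 TPM, and Serping1 9.44, 11.0 and 40.0 TPM, in knockdown replicates 2, 3 and 4. C5ar1 alone among the members went the other way, with 5.20 and 6.10 TPM in replicates 2 and 3 and 3.29 TPM in replicate 4, the lowest of the 6 MCAO libraries at 0.530 times the mean of the other 5. The C3a and C5a receptors therefore stood at opposite ends of the MCAO libraries in the same sample.

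In all, 7 of the 8 members were highest in replicate 4 and 7 were at least 2 times the mean of the other 5 libraries. Among all genes tested, 20.5% were highest there, 8.01% reached 2 times that mean and 21.7% were lowest there. Without replicate 4 all 8 estimates against the control oligo were below 0: -0.15 for C1qa, -0.12 for C1qb, -0.17 for C1qc, -0.34 for C3ar1, -0.37 for Serping1, -0.16 for C5ar1, -0.94 for C4b and -0.66 for C3 with no filter. None of the 8 passed, and 0.0176% of all genes tested did. C4b was the only member with an unadjusted p under 0.05 (limma, adjusted p = 0.776), a level that 960 of the 17080 genes reached.

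**Figure D3:**
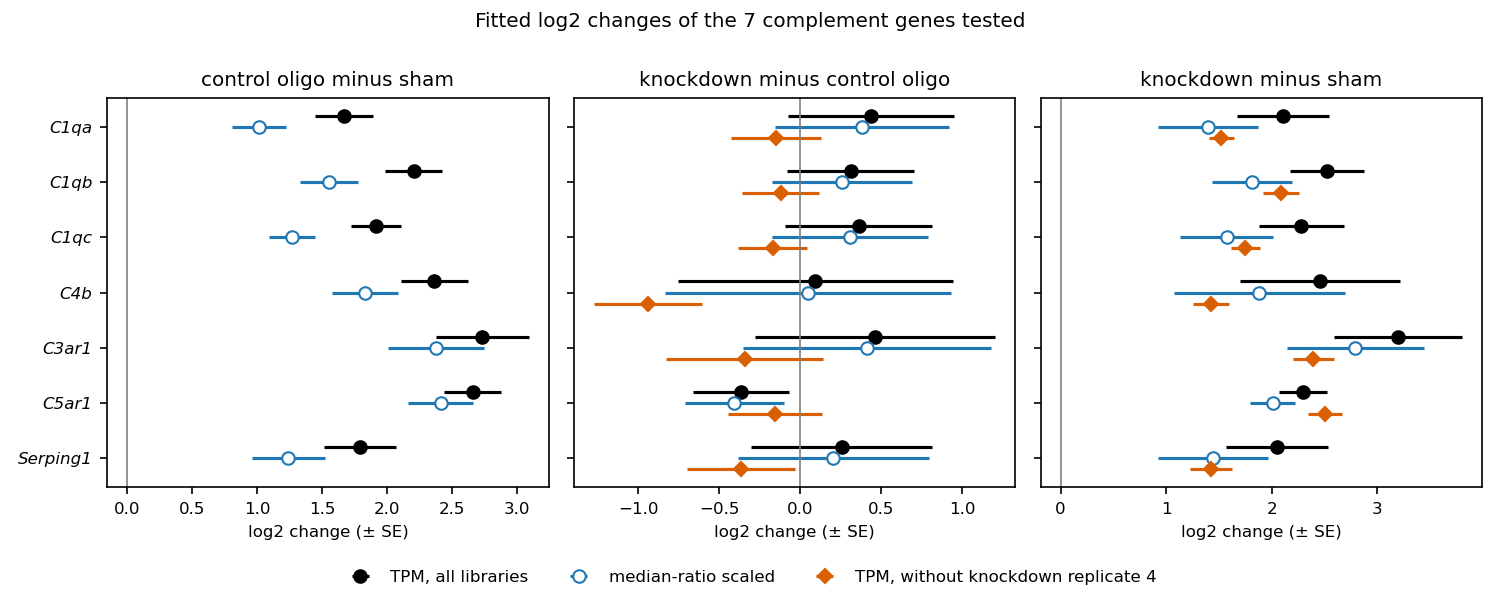
Fitted log2 changes (horizontal axes, log2 of TPM + 1, with SE) of the 7 members tested in the 3 comparisons, from TPM (filled), after median-ratio scaling (open) and without knockdown replicate 4 (diamonds). All changes against sham are above 0, while the knockdown minus control oligo estimates change sign for 6 of 7 genes when replicate 4 is left out.

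Cell type markers also set replicate 4 apart. Neutrophil markers summed to 78.9, 94.4 and 1440 TPM in knockdown replicates 2, 3 and 4, monocyte and macrophage markers to 19.0, 20.8 and 163 TPM, and reactive astrocyte markers to 655, 782 and 3707 TPM. Microglial markers summed to 373, 340 and 607 TPM. Other cell types differed there too: endothelial markers summed to 562 TPM in replicate 4 and 253 to 288 TPM in the other 5 MCAO libraries, and fibroblast and meningeal markers to 235 against 83.0 to 124 TPM. Markers of excitatory neurons were lowest in replicate 4, at 3276 against 3916 to 4899 TPM. The summed C1q TPM was 0.924, 1.09 and 1.72 of the microglial sum in knockdown replicates 2, 3 and 4, so replicate 4 was near control oligo replicate 1, at 1.73. Control oligo replicates 1 and 3 had neutrophil sums of 338 and 343 TPM, and monocyte and macrophage sums of 42.4 and 25.6 TPM. Their C3 was 3.10 and 0.504 TPM. The part of these cells in the values of replicate 4 and of the control oligo libraries was not tested.

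**Figure D4:**
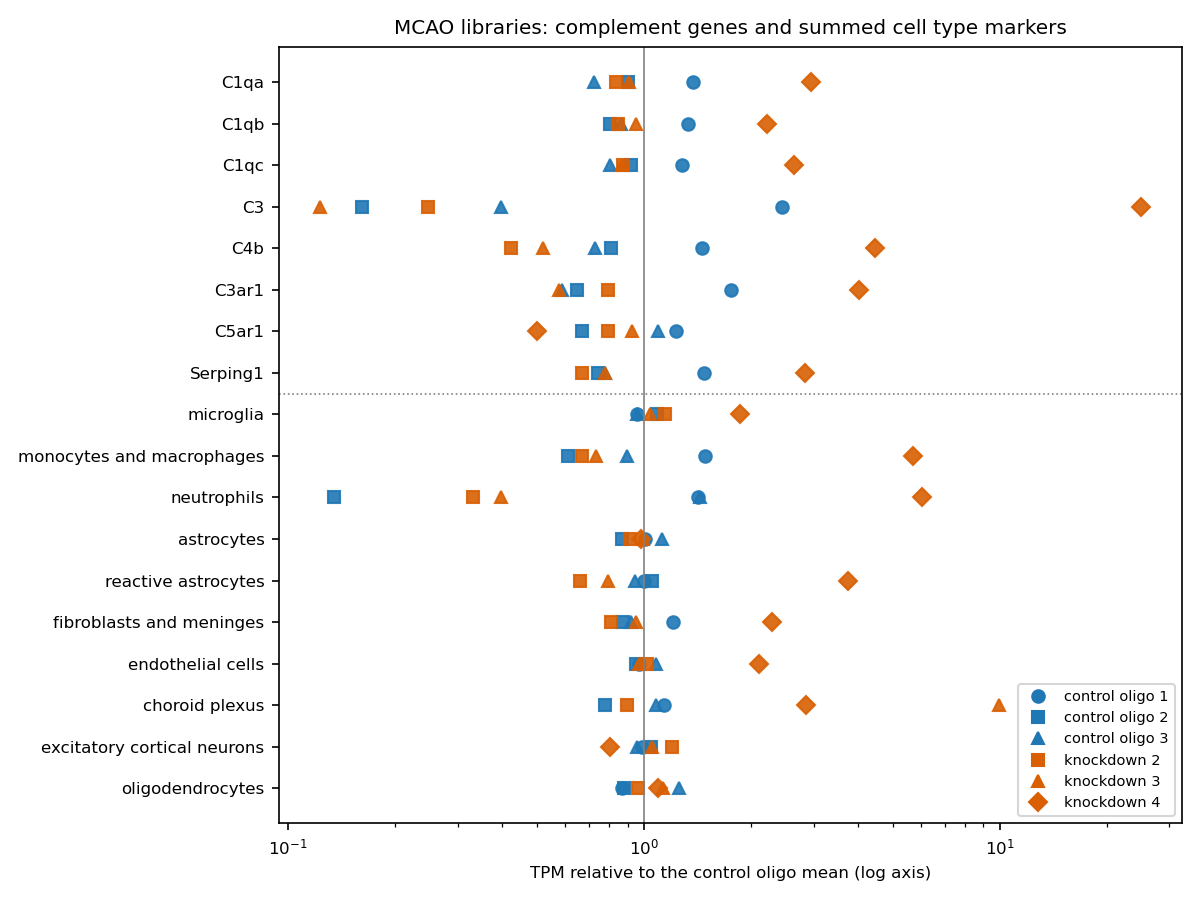
TPM of the 8 complement genes (above the dotted line) and summed TPM of 10 cell type marker lists (below it) in each of the 6 MCAO libraries, relative to the control oligo mean (horizontal axis, log scale). Knockdown replicate 4 lies furthest right for 7 of 8 complement genes and for 6 lists (neutrophil, macrophage, microglial, reactive astrocyte, endothelial and fibroblast), is furthest left for neurons, and is not at either end for the astrocyte, oligodendrocyte and choroid plexus lists.

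Against sham the knockdown libraries were higher for all 7 members tested. This comparison shares the sham libraries with the one above and is given beside it, not as a second line of evidence. The log2 changes were 2.11 for C1qa, 2.52 for C1qb, 2.28 for C1qc, 2.46 for C4b, 3.20 for C3ar1, 2.30 for C5ar1 and 2.05 for Serping1 (limma, adjusted p from 1.21e-04 for C5ar1 to 0.0214 for C4b), when 52.7% of all genes rose. After median-ratio scaling 5 of 7 passed, with 22.7% of all genes higher. C4b (1.88, adjusted p = 0.0929) and Serping1 (1.45, adjusted p = 0.0540) did not. The call of C4b was also lost when any 1 of the 3 sham libraries was left out (adjusted p = 0.0520 to 0.0699). Without replicate 4 all 7 passed, with C4b at 1.43 and Serping1 at 1.42 and 57.5% of all genes higher. All 7 also passed without it after scaling, beside 28.0% of all genes. C3 with no filter had 1.86 (limma, adjusted p = 0.364) with replicate 4, where 23.4% of genes rose. Without replicate 4 C3 had 0.28 (adjusted p = 0.0306), a fit for which no share of all genes is given. That value rests on an estimated 14 and 8 read pairs in knockdown replicates 2 and 3, against 2, 1 and 1 in sham.

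A wider list of 52 complement pathway genes places the 8 members among their partners. Of these, 46 were found under their symbols, and 30 were tested. Against sham, 21 of the 30 rose, 3 fell and 6 did not pass in the control oligo group, with a median of 0.82 beside 0.56 over all genes. After scaling 10 rose and 5 fell, with a median of 0.22 beside 0.01. In this comparison 52.6% of all genes rose and 12.8% fell, or 26.1% and 29.2% after scaling. No pathway gene passed between knockdown and control oligo. Knockdown against sham had 16 higher and 3 lower, or 4 and 4 after scaling. Of all genes 52.7% were higher and 12.5% lower, or 22.7% and 27.1% after scaling, so the share of the list that was higher was near that of all genes in TPM and below it after scaling. Without replicate 4 knockdown against sham had 18 higher, when 57.5% of all genes were higher. It also had 4 lower, which are given with no share of all genes and so cannot be set against the typical gene.

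Among the proteases, recognition molecules and other early components of the classical and lectin pathways, 5 of 7 tested rose, beside 52.6% of all genes. C4a, whose split from C4b is uncertain, is one of the 5. After scaling 3 rose and 1, Colec12, fell (adjusted p = 0.0436), beside 26.1% of all genes higher and 29.2% lower. C1s1 and C1ra, which encode the proteases bound to C1q, rose by 1.11 and 1.02 (limma, adjusted p = 0.00359 and 0.00307), and C1ra did not pass after scaling (adjusted p = 0.0754). In knockdown replicate 4 C1s1 stood at 9.75 TPM, against 0.901 to 2.55 TPM in the other 5 MCAO libraries. Of the alternative pathway, Cfp, which encodes properdin, the stabilizer of the C3 convertase, rose by 1.73 (adjusted p = 0.00121) from 2.59 ± 1.48 to 10.6 ± 2.88 TPM (SD, n = 3). Cfb, the protease of that convertase, had 0.60 (adjusted p = 0.106). Of the terminal components only C8g was tested. It had 1.11 to 1.20 TPM in sham and 1.84 to 2.93 TPM in the MCAO libraries and rose by 0.59 (adjusted p = 0.0195), or 0.19 scaled (adjusted p = 0.374). The others found were too low to test: Hc, which encodes C5, and C8a were at 0 in all sham libraries and did not exceed 0.109 and 0.0619 TPM in the others. C7 did not exceed 0.541 TPM in any library.

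Regulators were listed as fluid-phase or membrane. For control oligo against sham 52.6% of all genes tested rose and 12.8% fell in TPM, or 26.1% and 29.2% after scaling. All 3 fluid-phase regulators tested rose in TPM, led by Clu (clusterin), which went from 279 ± 28.9 to 962 ± 74.3 TPM (SD, n = 3), a change of 1.79 (limma, adjusted p = 1.05e-05). It was the only one of the 3 to pass after scaling. Of the 10 genes listed as membrane regulators and tested, 4 rose and 3 fell. Cd59a, a blocker of the membrane attack complex, rose by 1.15, and Csmd1 and Csmd3, large neuronal proteins with complement control domains, fell by 0.99 and 1.34. Cd46 fell by 0.78. These 4 genes passed in the same direction after scaling. Of the 10 genes listed as membrane regulators, 1 rose and 4 fell after scaling.

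With all 6 libraries, Cd59a was the only one of the 30 pathway genes with an unadjusted p under 0.05 between knockdown and control oligo. That level was reached by 321 of all 17080 genes. Cd59a had 10.5, 9.66 and 9.71 TPM in the control oligo libraries and 4.57, 4.42 and 6.60 TPM in knockdown replicates 2, 3 and 4, with no overlap. Its log2 difference was -0.84 ± 0.21, and -0.99 without replicate 4, but it did not pass over all genes (limma, adjusted p = 1 and 0.776). Of all genes, 1.80% had knockdown libraries wholly below the control oligo libraries. Without replicate 4, none of the 30 pathway genes passed over all genes. An unadjusted p under 0.05 was reached by 5 of the 30, beside 960 of all 17080 genes. Among these 5 pathway genes the largest difference was that of Lrp1, an endocytic receptor, at -1.94 (limma, adjusted p = 0.541). Lrp1 had 73.3, 125 and 115 TPM with the control oligo, and 29.4, 22.7 and 160 TPM in knockdown replicates 2, 3 and 4.

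All 7 receptors and C1q-binding proteins tested rose in TPM, and 4 of them rose after scaling, beside 52.6% and 26.1% of all genes. Itgb2, the shared chain of the C3 fragment receptors CR3 and CR4, rose by 1.92 (limma, adjusted p = 2.85e-04). Itgam, the partner chain in CR3, rose by 0.80 but had 0.22 after scaling (adjusted p = 0.188). Both were far above the other MCAO libraries in knockdown replicate 4, with Itgam at 69.2 TPM against 6.72 to 11.3 TPM and Itgb2 at 49.1 TPM against 5.83 to 11.7 TPM. C1qbp and Calr rose by 1.78 and 1.20, and their products also work in mitochondria and in the endoplasmic reticulum. Of the 30 pathway genes, 17 were highest and 4 lowest in knockdown replicate 4 among the MCAO libraries. Of all genes tested, 20.5% were highest and 21.7% lowest there.

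**Figure D5:**
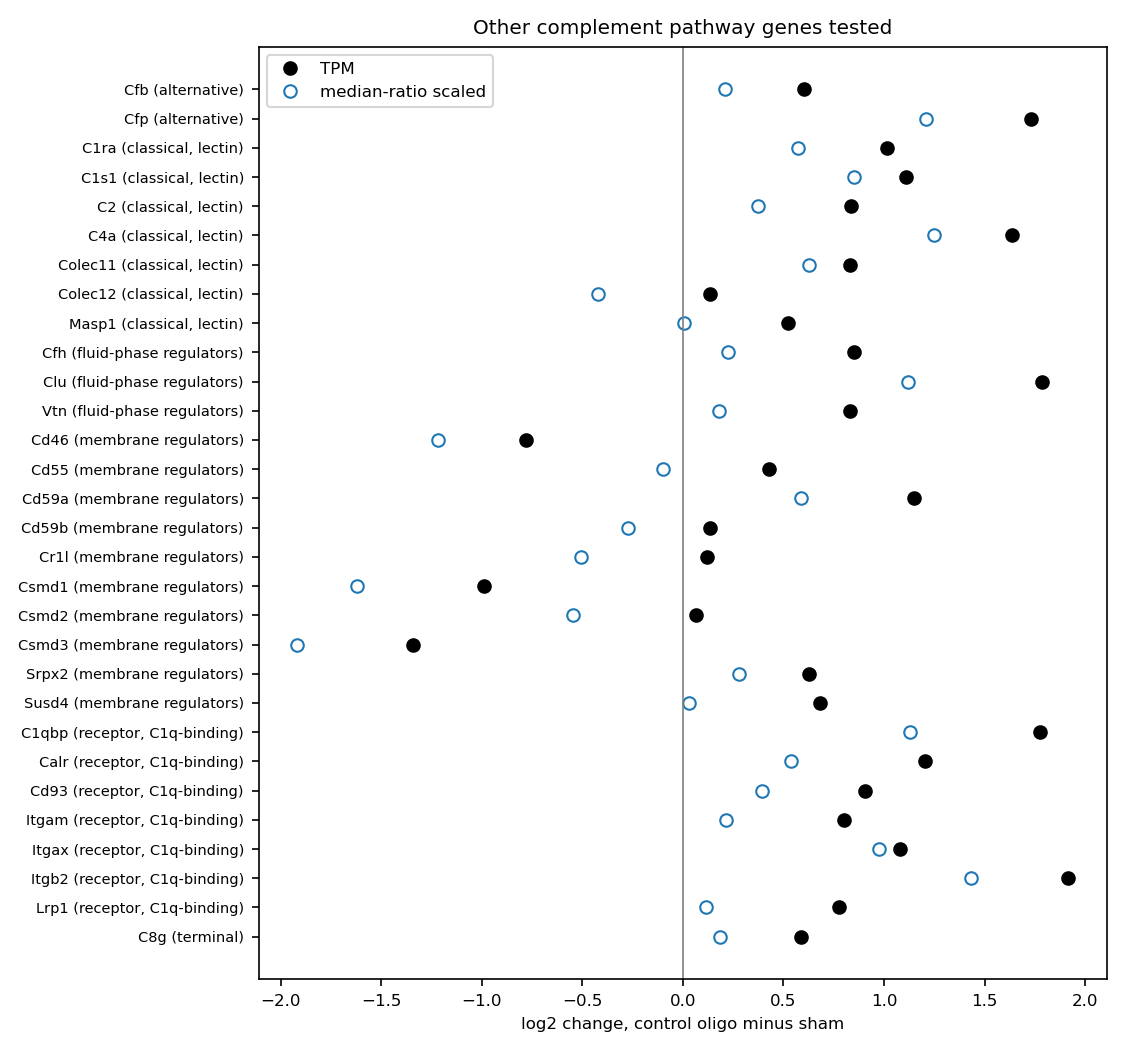
Log2 changes of control oligo against sham (horizontal axis, log2 of TPM + 1) for the 30 other complement pathway genes tested, ordered by role, from TPM (filled) and after median-ratio scaling (open). Scaled values lie to the left of the TPM values throughout, and Csmd1, Csmd3 and Cd46 are the genes furthest below 0.

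The genes closest in profile to each member were found by the root mean square difference of log2(TPM + 1), each gene centred on its mean over the 9 libraries. C1qa and C1qc were both closest to Grn, with differences of 0.13 and 0.12. Grn encodes progranulin, a protein of microglial lysosomes, and had 11.9 to 15.0 TPM in sham, 36.5 to 65.5 TPM with the control oligo and 159 TPM in knockdown replicate 4. C1qb was closest to Tyrobp (0.16), an adaptor of microglial receptors, and to Fcgr3 (0.16), an Fc receptor. Serping1 was closest to Ctss (0.14), which encodes cathepsin S. C4b was closest to Tlr2 (0.25), C3ar1 to Lgals9 (0.22) and C3 to Ikbke (0.23) and Fpr2 (0.24). Next in rank were Il13ra1 and P2ry6 for C1qa, Ackr1 (0.18) for C1qb, and Sh3bp2 and Vasp for C1qc. Ctla2b and Apobec1 followed for C4b, Apod and Tlr2 for C3ar1, F13a1 for C3, and Lacc1 and Grn for Serping1. Fpr2, a chemotactic receptor, had 45.4 TPM in replicate 4 and at most 4.79 TPM in the other MCAO libraries. C5ar1 was closest to Ccer2 (0.22), Mlf1 (0.23) and Camk2n2 (0.23), none of which is shared with another member. The closest genes of C1qb and of C3 were not shared with another member either. Ccer2 was 3.68 TPM in replicate 4 and 6.01 to 9.84 TPM in the other MCAO libraries. The profiles share libraries and group differences, so these are descriptions over 9 points.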

How the data were processed

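The deposited tables give a TPM, an FPKM and a mean read coverage for each transcript, per the file headers. Alignment was with HISAT2 2.0 and quantification with StringTie 1.3 on GRCm38/mm10, per the submitters' processing notes. The StringTie version was 1.3.4d, run with no strand option, per the file headers. The MCAO libraries were stranded poly(A) libraries, per the labels' protocols. How the sham libraries were made is not given in the sources used here.

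Transcript TPM were added up per gene ID. Genes at or above 1 TPM in 3 or more of the 9 libraries (17080) were fitted with limma-trend (limma 3.58.1 in R 4.3.3) on log2(TPM + 1). Each comparison used its own 6 libraries with no covariate, and a Benjamini-Hochberg adjusted p under 0.05 over all genes tested was the threshold. Median-ratio scaling divided a library by the median, over genes, of its ratios to a geometric mean profile. Other alternatives were FPKM, a pseudocount of 0.1, no filter on low values, TPM over nuclear protein-coding genes, all 9 libraries in one fit, a replicate block and leaving out each library. C3 without the filter at the other pseudocount or without a library, and scaling without knockdown replicate 4, were added after seeing the data. Read length was inferred from the most frequent number of aligned bases in single-exon transcripts with few reads. Read pairs were estimated from coverage, transcript length and that read length, and no count test was run on them. The labels do not tie each library to a separate animal, so p-values measure the spread between these samples. The fitting was tested on simulated data.

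The members, the pathway and marker lists and the motifs were chosen with earlier results of these data known. Genes named are the 8 members, pathway genes called in any comparison, C4a, marker genes, and the 3 genes closest in profile to each member. Cfb, Colec12, Hc, C7 and C8a fall outside this rule and were picked after their values were known. Of the 52 pathway genes, those not found under their symbols were not analysed here.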

Additional observations from a re-analysis of the deposited data

How the results depend on the processing

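The 7 members tested kept their direction and their side of the threshold for control oligo against sham under every alternative run. For the pathway list in that comparison 24 of 30 genes passed (14 with FPKM, 15 with median-ratio scaling, 14 of 29 with TPM over nuclear protein-coding genes). Over all genes 11168 of 17080 passed (9416 with FPKM, 9439 with scaling, 7191 of 13834 with nuclear protein-coding TPM). For knockdown against sham 7 of 7 members passed, and 4 of 7 with nuclear protein-coding TPM (C1qa, C4b and Serping1 did not). With FPKM 5 of 7 passed (limma, adjusted p = 0.0934 for C4b and 0.0506 for Serping1). With no filter 6 of 8 passed (adjusted p = 0.0975 for C4b and 0.364 for C3), where 23.4% of 35100 genes were higher. The pathway count of 19 of 30 became 9 with FPKM, 8 with scaling and 8 of 29 with nuclear protein-coding TPM. It ran from 12 to 22 on leaving out a library. Over all genes the count of 11150 of 17080 became 6536 of 13834 with nuclear protein-coding TPM. For knockdown against control oligo 2 of 17080 genes passed, 7 of 35100 with no filter and 0 of 13834 with nuclear protein-coding TPM. Of the 17080 genes, 4 passed with all 9 libraries in one fit and 1 to 3 on leaving out a library. In that comparison no member was called, and signs turned. C4b had -0.001 with nuclear protein-coding TPM, -0.018 without control oligo replicate 2 and -0.087 without control oligo replicate 3. On leaving out a library, values ran from -0.147 to 0.760 for C1qa, -0.121 to 0.569 for C1qb, -0.170 to 0.628 for C1qc, -0.342 to 0.965 for C3ar1, -0.940 to 0.679 for C4b, -0.368 to 0.618 for Serping1 and, with no filter, -0.663 to 1.747 for C3, the lowest being without knockdown replicate 4 in each case. The cause was not tested.

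Same-numbered samples had correlations of their deviations of 0.231 and 0.074 for knockdown and control oligo and -0.071 to 0.116 for control oligo and sham. Samples with different numbers had -0.240 to 0.287 and -0.112 to 0.137. Each deviation is taken from a mean of 3 libraries, so these values cannot decide whether same-numbered samples were paired. With the replicate block 0 genes passed between knockdown and control oligo, C4b had -0.646 and Serping1 -0.070. In that fit knockdown replicate 4 and control oligo replicate 1 had no same-numbered library in the other group. These libraries therefore added nothing to the estimates, which rest on the same-numbered libraries only and are not a result from all libraries of the comparison. C5ar1 in sham and C3 in most libraries rest on few reads, which limits their precision.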
